A study of Mus musculus with 4 samples.

Results

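The genes that load, dock, prime and fuse synaptic vesicles were examined in RNA of the mouse lumbar spinal cord. They were 37 genes, taken by name from a fixed list of vesicle, SNARE and active zone genes, and all 37 were found among the 18674 gene names of the expression table. Of these, 35 had a mean of at least 1 RPKM over the 4 libraries, against 12987 of all names. RPKM is a read count divided by transcript length and library depth, so that levels of different genes can be set side by side per length.

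A chemical synapse releases transmitter when a vesicle fuses with the membrane of the nerve terminal. Vesicle synaptobrevin (VAMP), membrane syntaxin and SNAP-25 zip together as the SNARE complex, complexins hold the complex ready and synaptotagmins sense the calcium that triggers fusion, after which NSF and SNAP adaptors take the complex apart. Active zone scaffolds such as RIM, bassoon, piccolo and Munc13 hold vesicles at the release site, Rab3 links vesicles to the scaffold, and synapsins keep the reserve pool together. In the spinal cord these proteins sit in terminals on motor neurons and interneurons, and within motor axons they reach the neuromuscular junction, which lies outside the tissue sampled here.

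Male wild-type (WT) mice and G93A mice were compared. G93A mice carry the human SOD1 transgene with the G93A mutation, a model of amyotrophic lateral sclerosis, here of the H1 high-expresser strain on a B6/SJLF1 background, in which the mutant protein is made throughout the body and not in neurons alone. Each genotype was given PBS vehicle or the polyamine spermidine (SD) in 4 injections per week for 30 days, and all mice were killed at 100 days of age. The groups are called WT vehicle and WT + SD, and G93A vehicle and G93A + SD, each with 1 library of polyadenylated RNA, so that no difference has a replicate check and no p-value is given. How many animals went into a library is not given in the sources used here. The study asked whether SD alters gene expression in G93A spinal cord.

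The estimated depth was about 36800000 to 38600000 read pairs per library, and no library stood apart in depth. Neuronal markers were present in all 4 libraries. Counts for the members were estimated from this depth and averaged where a gene had several rows. They ran from 340 read pairs for Syn3, the lowest library among genes that passed the filter, to 104740 read pairs for Snap25. Slc17a7 and Slc17a8, which did not pass, had 54.8 to 108 and 53.9 to 73.0 estimated read pairs. These counts are estimates, because the unit itself was inferred from the values.

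Both G93A libraries had lower levels of most release genes, as a share of the library, than both WT libraries. Under vehicle, a G93A level at least 1.5-fold below WT was found for 12 of 35 genes (34.3%), against 4.34% of all gene names tested, and a level at least 1.5-fold above it for none, against 13.1%. Under SD, 21 of 35 (60.0%) were lower by that much, against 7.85% of all names, and none was higher, against 15.8%. Of the 35 genes, 30 (85.7%) had both G93A libraries below both WT libraries, compared with 32.6% of all names, and 0 had both above, compared with 43.7%. The 5 exceptions were Vamp2, Stx1a, Syt5, Unc13b and, on the mean of its rows, Syngr1. The summed level of all 37 genes was 4322 and 4379 RPKM in the WT libraries without and with SD, and 2984 and 2591 in the G93A libraries, which for the G93A libraries is 69.1% and 60.0% of WT vehicle. RPKM is relative to library depth, so a lower value is a smaller share of the reads. In bulk tissue, fewer neurons or terminals, less RNA per neuron and more RNA of other cells cannot be told apart.

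The median log2 fold change of the 35 genes, computed here and throughout on RPKM plus 0.1, was -0.46 between the vehicle libraries and -0.67 between the SD libraries. Over all 12987 names it was 0.05 in both. The vehicle pair and the SD pair share no library. Across the 35 genes the log2 fold changes of the pairs had a Pearson r of 0.92 and a Spearman rho of 0.92, which describes genes of the same 4 libraries and is no test, and over all 12987 names the values were 0.92 and 0.87. The WT libraries were close to each other, with a median absolute log2 difference of 0.06 over the 35 genes and 34 of 35 under 0.2, against 82.7% of all names. The widest WT difference was that of Syt5 at 0.38, and 24 genes under vehicle and 25 under SD were lower in G93A by more than that, against 11.2% and 15.5% of all names. Between mean log2 level and the genotype difference, r was -0.08 and rho -0.05 across the 35 genes under vehicle, and r was -0.26 and rho -0.18 under SD, a description over genes of the same libraries.

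**Figure D1:**
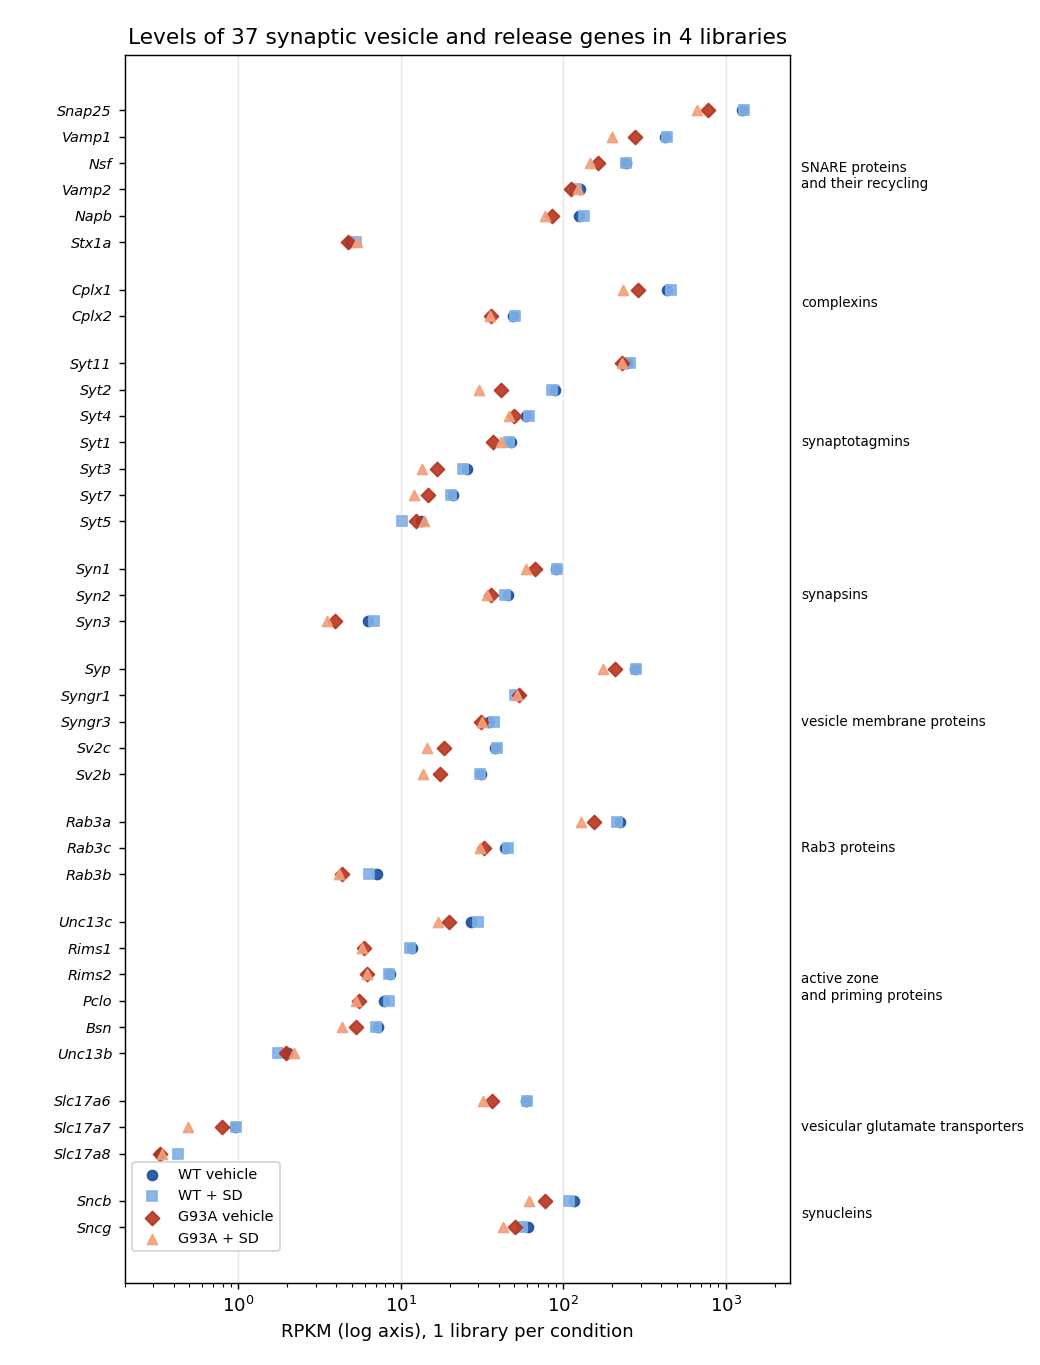
RPKM on a log axis for the 37 genes, ordered by role and by level, with 1 point for each of the 4 libraries. The WT points lie together near the right end of most rows and the G93A points to their left, with G93A + SD lowest in 27 of the 35 genes that passed the filter, while the points of Vamp2, Stx1a, Syt5, Unc13b and Syngr1 overlap.

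Among SNARE genes, Snap25, which encodes the most abundant transcript of the set, was at 1268 and 1292 RPKM in the WT libraries without and with SD, and at 782 and 661 RPKM in the G93A libraries without and with SD. It was 1.62-fold lower in G93A under vehicle and 1.95-fold lower under SD. The synaptobrevin genes diverged. Vamp1, the form used by motor and other fast spinal terminals, stood at 420, 432, 276 and 199 RPKM in the same order of libraries, 1.52-fold lower under vehicle and 2.17-fold lower under SD. Vamp2, the form that dominates in the forebrain, stood at 126, 121, 112 and 123 RPKM, with log2 differences of -0.17 and 0.03, so that its libraries overlapped between genotypes. The ratio of Vamp1 to Vamp2 within a library was therefore 3.32 and 3.59 in the WT libraries, 2.46 in G93A vehicle and 1.61 in G93A + SD.

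Stx1a, which encodes syntaxin-1A, was low in every library at 4.89, 5.31, 4.75 and 5.41 RPKM and did not separate the genotypes. Nsf, the ATPase that takes spent SNARE complexes apart, was at 243 and 244 RPKM in WT and 164 and 145 in G93A. Its adaptor Napb (beta-SNAP) was at 124 and 133 in WT and 85.5 and 77.1 in G93A. Both passed 1.5-fold under SD and not under vehicle, at log2 differences of -0.75 and -0.79 under SD. Cplx1, the more abundant complexin here, was at 435 and 459 RPKM in WT and 287 and 232 in G93A (1.52-fold and 1.98-fold lower), and Cplx2 at 48.8 and 50.2 in WT and 35.7 and 35.5 in G93A, short of 1.5-fold in both comparisons.

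The synaptotagmins held both the largest difference of the set and some of the smallest. Syt2, the fast calcium sensor of spinal cord, brainstem and motor terminals, was at 88.5 and 85.4 RPKM in the WT libraries and at 41.3 and 30.2 RPKM in the G93A libraries, the second value of each pair with SD. That is 2.14-fold lower under vehicle and 2.83-fold lower under SD. Syt1, the corresponding sensor of forebrain synapses, was at 48.0, 46.3, 37.1 and 41.2 RPKM, with log2 differences of -0.37 and -0.17. As a result Syt2 exceeded Syt1 by a ratio of 1.84 in both WT libraries, by 1.11 in G93A vehicle, and was below it in G93A + SD at 0.732. The genes for the slower sensors lay between these. Syt3 was at 25.6 and 24.2 RPKM in WT and 16.6 and 13.5 in G93A, and Syt7, which supports asynchronous release, at 20.9 and 20.4 in WT and 14.7 and 12.1 in G93A. Syt4 and Syt11, which lack normal calcium binding, were lower by less than 1.5-fold, at log2 -0.24 and -0.10 under vehicle and -0.39 and -0.16 under SD. Syt5 was the exception, with 13.4, 10.2, 12.4 and 13.9 RPKM, so that the WT + SD library was the low one and the log2 difference was -0.11 under vehicle and 0.44 under SD.

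**Figure D2:**
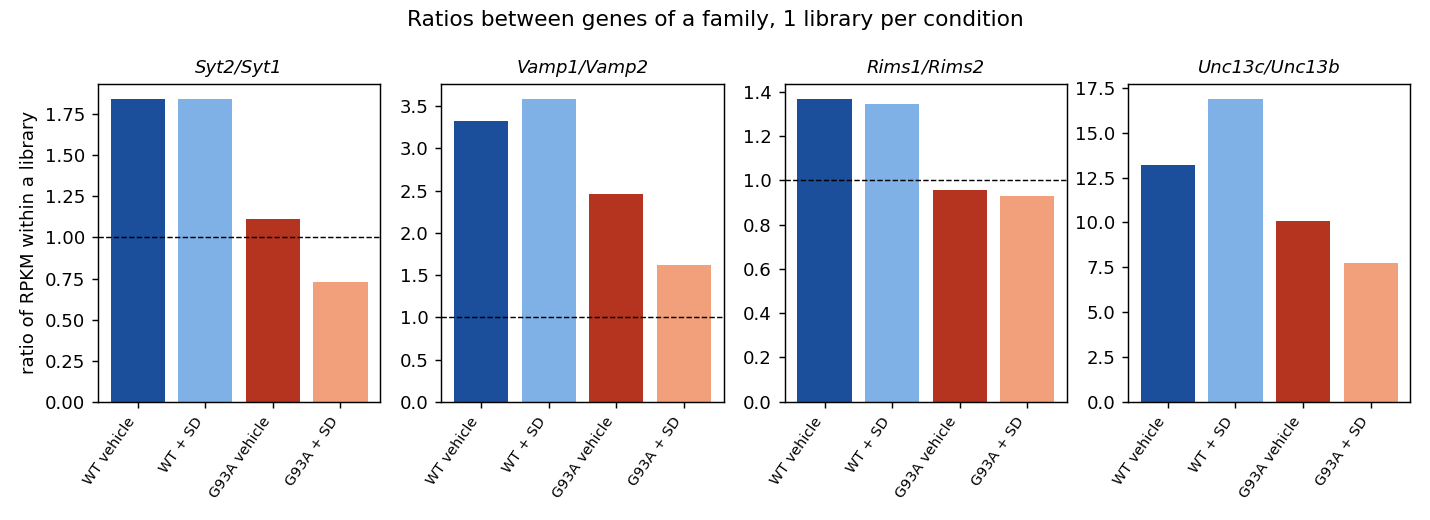
Ratio of RPKM between genes of a family within each of the 4 libraries, as bars from 0 with a dashed line at a ratio of 1 where the axis is near it. For Syt2 to Syt1, Vamp1 to Vamp2, Rims1 to Rims2 and Unc13c to Unc13b, both G93A bars are below both WT bars and the G93A + SD bar is the lowest.

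Genes for proteins of the vesicle membrane also differed among themselves. Sv2c and Sv2b, which encode SV2 glycoproteins of the vesicle, were among the genes with the widest differences. Sv2c was at 37.8 and 38.9 RPKM in WT and 18.5 and 14.4 in G93A, 2.05-fold lower under vehicle and 2.70-fold lower under SD. Sv2b was at 31.2 and 30.7 RPKM in WT and 17.4 and 13.7 in G93A, 1.79-fold and 2.23-fold lower. The broadly used form Sv2a, outside the list, differed less, and the ratio of Sv2c to Sv2a was 0.328 and 0.345 in WT against 0.202 and 0.174 in G93A. Syp (synaptophysin), the standard marker of synaptic vesicles, was at 274, 278, 207 and 175 RPKM, at least 1.5-fold lower under SD only. An antisense gene, Gm14703, covers 33.8% of the exon bases of Syp, and no source used here says that reads were counted by strand, so reads of the pair cannot be told apart. Antisense or facing genes cover smaller shares of Syt7 (17.2%), Syt4 (14.5%) and Rab3b (9.53%). Synaptogyrin Syngr3 was at 35.1 and 37.6 RPKM in WT and 31.2 and 31.6 in G93A.

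Synapsins, which tether the reserve pool, were all lower in both G93A libraries. Syn3 was at 6.25, 6.85, 3.91 and 3.51 RPKM, with log2 differences of -0.67 and -0.94, Syn1 at 90.3, 91.0, 66.6 and 58.8 (-0.44 and -0.63) and Syn2 at 45.6, 44.1, 35.7 and 34.1 (-0.35 and -0.37). The Rab3 GTPases followed. Rab3a, the main vesicle Rab, was at 223, 214, 155 and 129 RPKM, Rab3c at 43.8, 45.7, 32.7 and 30.7, and Rab3b at 7.14, 6.36, 4.36 and 4.19. Rab3b was at least 1.5-fold lower in both comparisons (log2 -0.70 and -0.59), Rab3a under SD only (-0.74) and Rab3c in neither (-0.42 and -0.57).

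Active zone genes were lower with the exception of Unc13b. Rims1, a central scaffold that binds Rab3 and calcium channels, was at 11.8 and 11.5 RPKM in WT and at 5.96 and 5.74 RPKM in G93A. It was 49.3% lower under vehicle and 49.9% lower under SD, so that unlike Syt2 and Sv2c it differed by nearly the same amount with and without SD. Rims2 differed less, at 8.59 and 8.51 RPKM in WT and 6.23 and 6.18 in G93A, so that the ratio of Rims1 to Rims2 was 1.37 and 1.35 in WT and 0.957 and 0.929 in G93A. The giant scaffolds Bsn (7.26, 7.03, 5.27 and 4.34 RPKM) and Pclo (7.83, 8.48, 5.52 and 5.29 RPKM) each passed 1.5-fold under SD only. Of the Munc13 priming factors, Unc13c was at 26.9, 29.8, 19.7 and 17.0 RPKM, whereas Unc13b was at 2.03, 1.76, 1.95 and 2.20 RPKM with its highest value in G93A + SD. The ratio of Unc13c to Unc13b was 13.2 and 16.9 in WT and 10.1 and 7.73 in G93A.

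The vesicular glutamate transporters, which load vesicles with glutamate, were unequal in level. Slc17a6 (VGLUT2), used by spinal excitatory interneurons, was at 58.7 and 60.1 RPKM in WT and 36.5 and 32.2 in G93A, 1.61-fold and 1.86-fold lower. Slc32a1, the transporter for GABA and glycine and no member of the list, stood lower in G93A as well, and the ratio of Slc17a6 to Slc32a1 was 1.27, 1.41, 1.15 and 1.33, with the genotypes overlapping. Slc17a7 (VGLUT1), which in spinal cord marks terminals of sensory and corticospinal axons whose cell bodies lie elsewhere, was listed at 0.952, 0.969, 0.795 and 0.487 RPKM. Slc17a8 (VGLUT3) was listed at 0.329, 0.427, 0.332 and 0.338 RPKM, and both are below the filter. The synucleins, abundant terminal proteins, were at 117, 109, 77.3 and 61.4 RPKM for Sncb (log2 -0.60 and -0.82) and 60.8, 55.4, 50.2 and 42.7 for Sncg (-0.27 and -0.38).

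**Figure D3:**
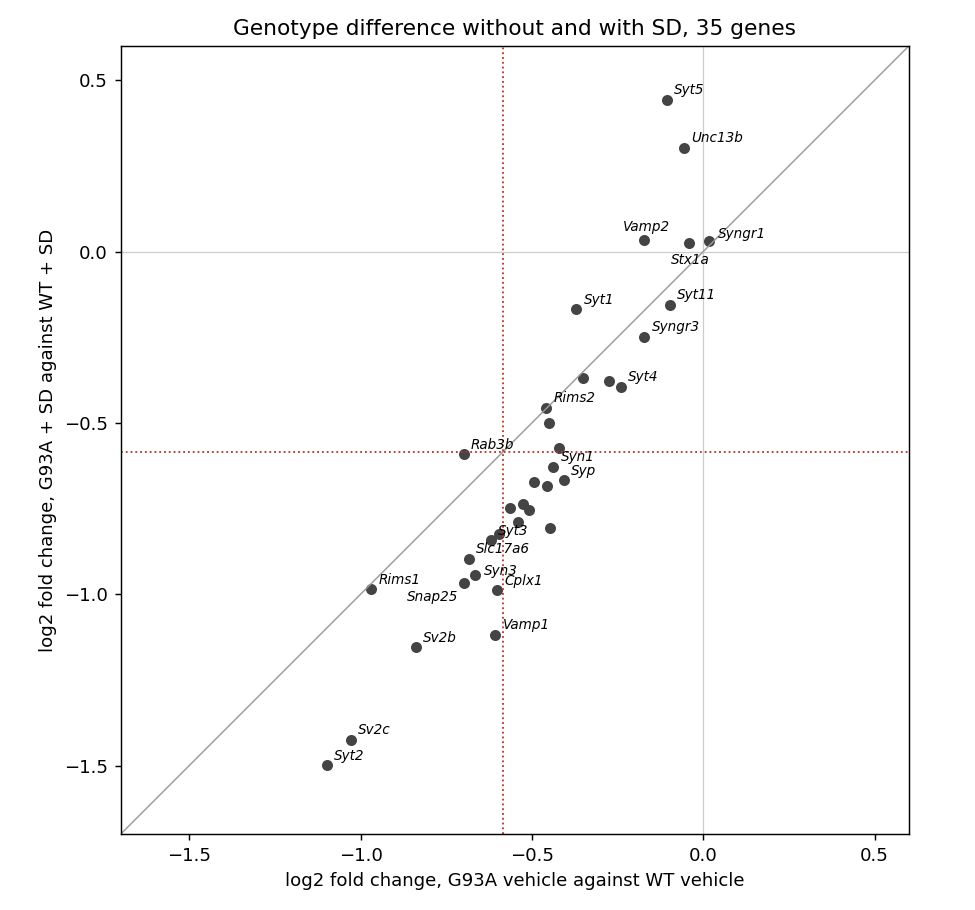
Log2 fold change of G93A against WT under SD (vertical) and under vehicle (horizontal) for the 35 genes that passed the filter, 1 point per gene, with a grey line of equal values and red dotted lines at 1.5-fold lower. Most points lie below the grey line, Syt2 and Sv2c lie farthest to the lower left, Rims1 lies on the line, and Syt5 and Unc13b lie above 0 on the vertical axis.

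In WT mice, the SD library was near the vehicle library for these genes. None of the 35 was lower by 1.5-fold or more, against 1.16% of all names, and none higher, against 0.732%, and the median log2 difference was 0.01 beside 0.01 over all names. In G93A mice, G93A + SD was likewise never 1.5-fold below (0.932% of all names) or above (1.24%) G93A vehicle among the 35. The values were on balance lower, with a median of -0.15 beside 0.01 over all names, and 28 of 35 genes were below 0, against 6216 of 12987 names. G93A + SD was the lowest of the 4 libraries for 27 of 35 genes (77.1%), against 30.2% of all names. The largest SD differences in G93A were those of Vamp1 (log2 -0.47), Syt2 (-0.45), Sv2c (-0.35), Sv2b (-0.34) and Sncb (-0.33), and the highest were those of Stx1a (0.19), Syt5, Unc13b (both 0.16), Syt1 (0.15) and Vamp2 (0.14). The SD comparisons use the same libraries as the genotype comparisons, so a low G93A + SD library enters both.

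Syngr1, the synaptogyrin gene, looked level at 52.8, 50.7, 53.4 and 51.8 RPKM, but this is the mean of rows for separate transcripts that went opposite ways. The transcript with a long last exon was at 73.0 and 70.8 RPKM in WT and at 56.1 and 52.4 RPKM in G93A, with log2 differences of -0.38 and -0.43. The transcript with a short last exon was at 32.7, 30.7, 50.7 and 51.2 RPKM, with differences of 0.63 and 0.74. The ratio of short to long was therefore 0.448 and 0.433 in the WT libraries and 0.903 and 0.976 in the G93A libraries. Estimated read pairs, averaged over the rows, were lower in G93A, at 6098 and 6150 in WT and 5250.5 and 5041 in G93A. The gene lies on the plus strand of chromosome 15 (GRCm38, chr15:80091334-80119501), and the transcripts, of 819 and 4180 bases, share 533 exon bases. They end in separate last exons at chr15:80113166-80113441 and chr15:80115855-80119501, whose coding parts are 90 and 219 bases and encode different C-terminal tails of the protein. These coding parts are shown because they tell the transcripts apart, with the last 15 bases of the shared exon in lower case and the coding part of the last exon in capitals (sequence read from GRCm38 with GENCODE M21).
Syngr1, short last exon: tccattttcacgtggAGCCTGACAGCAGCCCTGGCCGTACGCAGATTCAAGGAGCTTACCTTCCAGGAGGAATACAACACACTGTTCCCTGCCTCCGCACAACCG
Syngr1, long last exon: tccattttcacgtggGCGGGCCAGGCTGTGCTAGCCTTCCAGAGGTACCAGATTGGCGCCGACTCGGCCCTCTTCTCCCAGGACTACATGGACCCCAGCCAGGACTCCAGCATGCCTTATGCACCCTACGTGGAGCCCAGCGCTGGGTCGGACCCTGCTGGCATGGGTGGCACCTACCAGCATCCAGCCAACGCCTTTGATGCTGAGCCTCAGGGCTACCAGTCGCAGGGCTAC
How reads in the shared exons were assigned to the rows is not stated, and which row holds reads of which last exon was not tested.

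**Figure D4:**
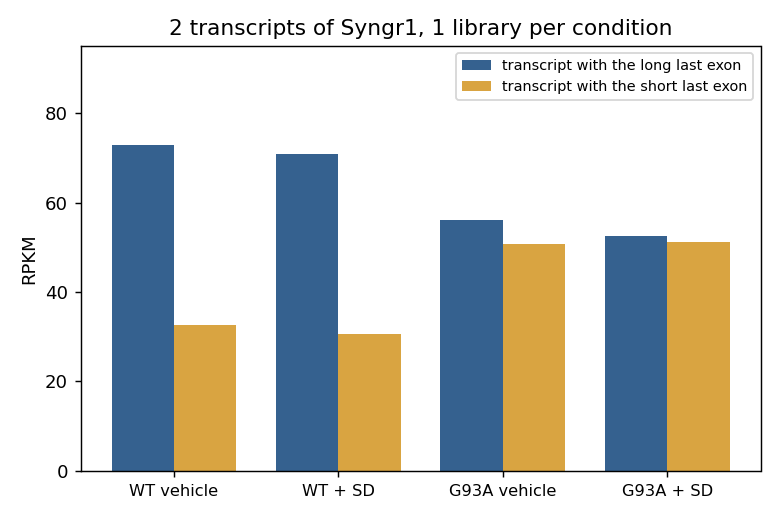
RPKM of the Syngr1 transcripts with the long and the short last exon in each of the 4 libraries, as bars from 0. The long form is above the short form by a wide margin in both WT libraries, and the bars are nearly equal in both G93A libraries, at 56.1 and 50.7 and at 52.4 and 51.2 RPKM.

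In all, 12 of the 37 genes had several rows, 53 rows over the set. Syngr1 was the only 1 of the 12 whose rows differed in sign between the genotypes. For 8 of the 12 the log2 differences of the rows lay within 0.02 of each other, and apart from Syngr1 the widest gap was in Syn2, whose rows were at 32.3, 30.0, 26.2 and 27.1 RPKM and at 58.8, 58.1, 45.2 and 41.2 RPKM. The longer Syn2 row was at log2 -0.50 under SD and the shorter at -0.15.

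Promoters of the members were compared by sequence. RefSeq starts on GRCm38.p6 were matched for 29 of 37 genes, and the 250 bases before each start were searched on both strands. The GC box GGGCGG, the core of an Sp1 site, was found for 21 of 29 genes (72.4%), against 65.1% of 9077 gene names above the filter, a gene being counted where any of its starts held the motif. The 29 genes were not filtered by level, and the 21 include Slc17a7, which was below the filter. Counted per single promoter and so not on the same footing, the share was 32.7% of all 32851 promoters of this length. The cAMP response element TGACGTCA was found for Syn1 alone (3.45%), against 1.55% of all promoters and 3.06% of the gene names above the filter. TATAAA was found for Sv2b and Rab3b (6.90%), against 12.4% and 7.72%, and the E-box CACGTG for 3 genes (10.3%), against 6.02% and 10.05%, so that for these 3 motifs the members lay close to the names above the filter. With the starts of a gene averaged, the median GC content was 61.2%, beside 60.2% for the gene names above the filter, from 41.0% for Sv2b to 71.6% for Bsn. A match describes letters only. The 3 genes with the widest vehicle difference are shown, Syt2 from both of its starts, followed by Stx1a, whose level did not separate the genotypes, each written 5′ to 3′ on the strand of its gene with GC boxes in either orientation in capitals. The windows are chr1:134646362-134646611 and chr1:134709050-134709299 on the plus strand for Syt2, chr13:96132578-96132827 and chr1:22806159-22806408 on the minus strand for Sv2c and Rims1, and chr5:135023232-135023481 on the plus strand for Stx1a.
Syt2, upstream start: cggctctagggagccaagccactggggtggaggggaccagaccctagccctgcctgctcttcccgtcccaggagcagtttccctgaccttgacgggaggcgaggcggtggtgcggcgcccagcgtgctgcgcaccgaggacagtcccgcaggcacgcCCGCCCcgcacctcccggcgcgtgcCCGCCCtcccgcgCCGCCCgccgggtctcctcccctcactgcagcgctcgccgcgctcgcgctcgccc
Syt2, downstream start: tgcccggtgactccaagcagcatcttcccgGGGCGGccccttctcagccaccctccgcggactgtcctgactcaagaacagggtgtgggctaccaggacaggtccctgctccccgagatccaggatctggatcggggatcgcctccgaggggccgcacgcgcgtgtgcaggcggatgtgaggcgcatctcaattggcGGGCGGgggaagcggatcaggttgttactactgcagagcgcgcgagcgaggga
Sv2c: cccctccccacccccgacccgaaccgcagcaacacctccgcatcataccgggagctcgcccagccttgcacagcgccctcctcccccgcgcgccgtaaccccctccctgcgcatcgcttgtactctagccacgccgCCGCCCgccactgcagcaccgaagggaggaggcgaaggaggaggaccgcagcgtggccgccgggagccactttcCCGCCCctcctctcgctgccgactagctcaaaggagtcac
Rims1: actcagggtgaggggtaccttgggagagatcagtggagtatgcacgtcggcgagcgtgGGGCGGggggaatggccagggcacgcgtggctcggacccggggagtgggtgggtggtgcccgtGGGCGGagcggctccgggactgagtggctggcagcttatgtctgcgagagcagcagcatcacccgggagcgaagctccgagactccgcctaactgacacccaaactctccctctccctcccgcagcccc
Stx1a: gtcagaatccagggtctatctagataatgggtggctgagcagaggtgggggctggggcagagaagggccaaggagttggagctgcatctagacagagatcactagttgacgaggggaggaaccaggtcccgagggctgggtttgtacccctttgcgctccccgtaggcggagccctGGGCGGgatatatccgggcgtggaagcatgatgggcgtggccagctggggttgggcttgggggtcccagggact
The GC box was thus present both in promoters of genes with wide differences and in that of Stx1a.

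The other genes of the presynaptic terminal, a list of 42 that holds none of the 37, were for the most part lower in G93A as well. Of 41 tested, 7 were at least 1.5-fold lower and 1 higher in G93A under vehicle, against 4.34% and 13.1% of all names. Under SD, 17 were lower and 2 higher, against 7.85% and 15.8%. The medians were -0.39 under vehicle and -0.50 under SD. Among the lowest was Rph3a (log2 -0.69 and -1.02), a Rab3 effector. The highest were Syngr2 (1.03 and 0.83) and Rab3d (0.52 and 0.81), members of the synaptogyrin and Rab3 families that are used widely outside neurons. Postsynaptic scaffold genes, which anchor receptors across the cleft, showed a smaller median of -0.24 under vehicle and -0.21 under SD, with 2 and 3 of 17 at least 1.5-fold lower and none higher. Their lowest values were those of Dlgap2 (-0.59 and -0.76) and Shank1 (-0.59 and -0.71), and their highest under vehicle those of Dlg1 (0.02 and -0.06) and Homer1 (-0.02 and 0.0012).

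SNAREs and homologs that serve fusion in most cell types were for the most part higher in G93A. Of 15 tested, 12 under vehicle and 14 under SD were above 0, against 7322 and 7153 of 12987 names, with medians of 0.18 and 0.32. At 1.5-fold, 0 were lower in either comparison. By the same limit 5 under vehicle and 4 under SD were higher, against 13.1% and 15.8% of all names. The highest under vehicle were Vamp8, an endosomal and lysosomal SNARE (8.32, 7.82, 19.5 and 24.4 RPKM), and Stxbp2 (1.83, 1.83, 4.04 and 4.39 RPKM). The lowest under vehicle were Stx12 (log2 -0.07 and 0.03) and Vamp4 (-0.06 and -0.04). Snap23, the widely expressed relative of Snap25, was at 6.15 and 5.85 RPKM in WT and 10.1 and 12.2 in G93A, and the ratio of Snap25 to Snap23 was 206, 221, 77.4 and 54.1.

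**Figure D5:**
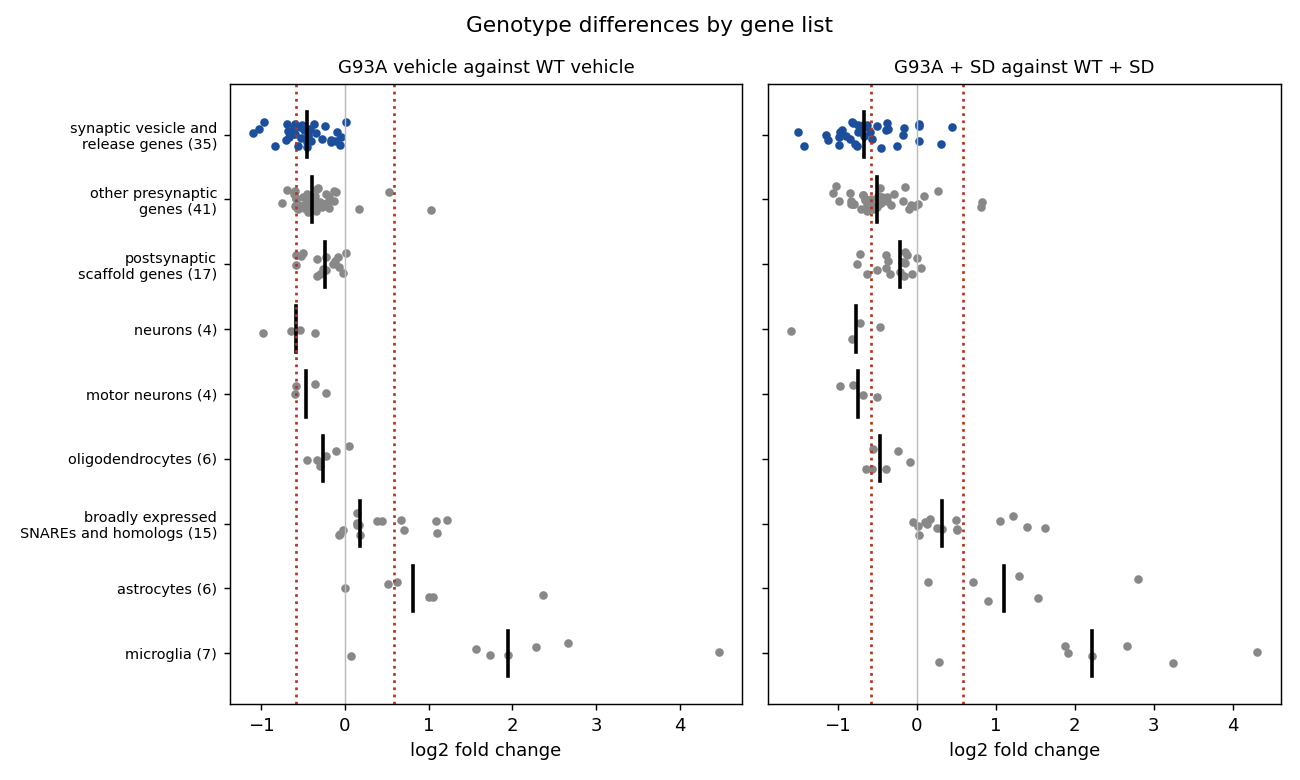
Log2 fold change of G93A against WT under vehicle (left) and under SD (right) for the members (blue) and for comparison lists (grey), 1 point per gene with the number of genes in parentheses, black bars at the medians and red dotted lines at 1.5-fold. The medians of the presynaptic, postsynaptic, neuronal and oligodendrocyte lists lie left of 0, that of the broadly expressed SNAREs lies right of 0, and those of astrocyte and microglia markers lie farthest right, while single genes of several lists lie on the other side of 0.

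Median log2 differences of neuronal, motor neuron and oligodendrocyte markers were below 0 in both genotype comparisons, and those of microglial and astrocyte markers above 0. The part of cell type composition in the differences was not tested. Over the 4 neuronal markers found of 6 listed, the summed level was 1343 and 1270 RPKM in WT and 794 and 581 in G93A, with median log2 differences of -0.59 and -0.77, and Nefl and Elavl4 were the lowest and Eno2 and Tubb3 the highest. The 6 motor neuron markers summed to 79.1 and 71.9 RPKM in WT and 60.3 and 44.2 in G93A, of which Mnx1 and Isl1 were under 1 RPKM, and Slc18a3 and Chat were the lowest of those tested under vehicle. Microglial markers summed to 115 and 105 RPKM in WT and 574 and 685 in G93A, with 6 of 7 at least 1.5-fold higher in both comparisons and P2ry12 the lowest (0.07 and 0.28). Astrocyte markers summed to 990 and 929 RPKM in WT and 3066 and 3639 in G93A, Gfap being the highest (2.36 and 2.81) and Slc1a2 the lowest (-0.01 and 0.14), and oligodendrocyte markers to 8814 and 9067 RPKM in WT and 7172 and 6573 in G93A. No marker found in the table was at 0 in all 4 libraries. Beside the neuronal median, the median of the release genes stood at -0.46 beside -0.59 under vehicle and -0.67 beside -0.77 under SD, with the range over single release genes from -1.10 to 0.02 and from -1.50 to 0.44. The median of the 4 motor neuron markers tested was -0.47 under vehicle and -0.74 under SD.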

How the data were processed

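RNA of 4 libraries, 1 per condition, was taken from a table deposited by the authors with 1 value column per library. The sources used here give no unit for the deposited values, and RPKM was inferred, since value times transcript length sums to nearly the same total in each library. The authors' methods describe 53-base reads, STAR alignment to GRCm38 and HTSeq counting on Ensembl genes, whereas the table lists RefSeq transcripts. The depths given are estimates, in which the commonest low value times transcript length was read as the worth of 1 read pair. The 3 ratio columns of the authors were not used.

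Rows of a gene name were averaged, log2 fold changes were computed with a pseudocount of 0.1 RPKM, names with a mean under 1 RPKM over the libraries were not counted, and a gene was called at 1.5-fold, the size the study used. The design allowed for counts, but no count model was used on these values. No test across conditions was run: with 1 library per condition, only a fit of genotype over both treatments, assuming that SD acts alike in both genotypes, would leave any residual degree of freedom. Scripts were tested on simulated data. The software was Python 3.11.15 with pandas 2.3.3 and numpy 2.4.6, and figures were drawn in matplotlib 3.10.9. Conditions came from the sample titles. Members, gene lists and comparisons were chosen with earlier results of these data known. All members were named. From each other list the 2 lowest and 2 highest genes in G93A vehicle against WT vehicle were chosen, of which 1 is not reported here. Alternatives covered scaling, filter, pseudocount, rows and fold size.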

Additional observations from a re-analysis of the deposited data

Results flagged for a closer look

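For 3 members the difference between SD and vehicle had opposite signs in WT and G93A mice and the values differed by at least 0.5 on the log2 scale. How many of all gene names meet this rule was not counted, so the number flagged has no share to be set against. The difference between genotypes was not tested, since each condition has 1 library.

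Vamp1, the synaptobrevin of fast spinal terminals, was 0.04 higher on the log2 scale in WT + SD than in WT vehicle and lower in G93A + SD than in G93A vehicle (-0.47), a difference of -0.51. Syt5 differed between SD and vehicle by -0.38 in WT and by 0.16 in G93A, a difference of 0.55, with estimated counts of 685 to 941 read pairs per library. Slc17a7 (VGLUT1) was 0.02 higher with SD in WT and lower with SD in G93A (-0.61), a difference of -0.63, at levels under 1 RPKM and with 54.8 estimated read pairs in G93A + SD against 88.1 in G93A vehicle.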

How the results depend on the processing

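Of 116 recomputed medians and counts, 109 kept their value within the stated tolerance (0.1 on the log2 scale for a median, 1.5 times for a count). The exceptions came from the fold size and the filter. At 2-fold, 2 genes were lower under vehicle and 4 under SD (0.547% and 1.52% of all names). At a limit of 0.32 on the log2 scale, 26 were lower in G93A under vehicle (14.6% of all names) and 1 (Syt5) was higher in G93A under SD (26.9%), while SD against vehicle gave 1 lower gene in WT (Syt5) and 5 in G93A (4.07% and 4.68%). Without the filter, 1 gene (Slc17a7) was 1.5-fold lower in G93A + SD than in G93A vehicle. Under vehicle, 11 of the 35 genes lay within 0.1 of the 1.5-fold limit on the log2 scale, so the count of 12 depends on it. Of 1046 single-gene values, 1023 moved by less than 0.1, and no value past 1.5-fold changed sign. Of the 23 that moved, 18 came from using the other WT library as the reference, chosen after the data had been seen. Against it, G93A vehicle was at 0.28 for Syt5 and 0.14 for Unc13b, which had been below 0. Rab3b (-0.54) and Sncb (-0.49) no longer reached 1.5-fold while Pclo (-0.61) and Unc13c (-0.59) did. With shifts of less than 0.1, Syt3 also fell short of 1.5-fold and Napb reached it. In the same way, Pclo under SD was at -0.56, short of 1.5-fold, and 20 genes were lower in place of 21. With a pseudocount of 1 RPKM, Syn3 was at -0.56 under vehicle. With its most abundant row alone, Syngr1 was at -0.38 and -0.43. A fit of genotype with treatment as the pair was not run, and leaving out a library removes its own comparison. With 1 library per condition, depth limits Slc17a7 and Slc17a8 most.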
